A study of Elaeis guineensis with 9 samples.

Results

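The transcripts described here are the curated mRNA models of the African oil palm, Elaeis guineensis, measured by RNA sequencing of leaves. They were chosen by accession alone, as all transcripts of the deposited table whose RefSeq accession begins with NM_, and they number 32 of 51490. RefSeq is the reference sequence collection of NCBI. Its NM_ models rest on sequenced mRNA and are curated, whereas its XM_ models (43433 in the table) and non-coding XR_ models (8025) are predicted by an annotation pipeline. Curated models of a crop such as oil palm come mostly from genes that someone cloned, so enzymes, housekeeping genes and floral regulators stand side by side without forming a pathway.

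The leaves came from frond 17 of Tenera palms, 7 years old with 4 years of yield records, which grew in the same field. Each of the 9 libraries belonged to 1 of 3 populations (Deli x SP540, Deli x Yangambi or Deli x LaMe, called SP540, Yangambi and LaMe here) and to a class of low, medium or high oil yield, 3 classes in all. There was 1 library per combination. Every group of 3 libraries is therefore replicated only across the other factor. Whether a library holds 1 palm or a pool is not stated in the labels, which name no batch either. The p-values therefore reflect only how far these libraries scatter, and that scatter may be technical. It also takes in any yield difference that varies between populations, since no interaction could be fitted. In such bulk leaf RNA, fewer cells of a type and less RNA per cell cannot be told apart. The unit is TPM, the share of a transcript scaled to a total of 1000000 per library, which is corrected for transcript length and allows levels of different transcripts to be compared. Sequencing depth cannot be read from TPM, so a transcript without signal is called listed at 0.

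Of the 32 curated transcripts, 25 carry a gene name in the RefSeq gene table and 7 have only a locus number; no role is given here to those 7. The mean level was at least 100 TPM for 15 transcripts, between 10 and 100 TPM for 3, between 1 and 10 TPM for 7 and under 1 TPM for 7. Together the 32 took 0.739% of all TPM in the low yield Yangambi library and up to 1.275% in the low yield SP540 library. In what follows, the 3 values of a population stand in the order low, medium and high yield.

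**Figure D1:**
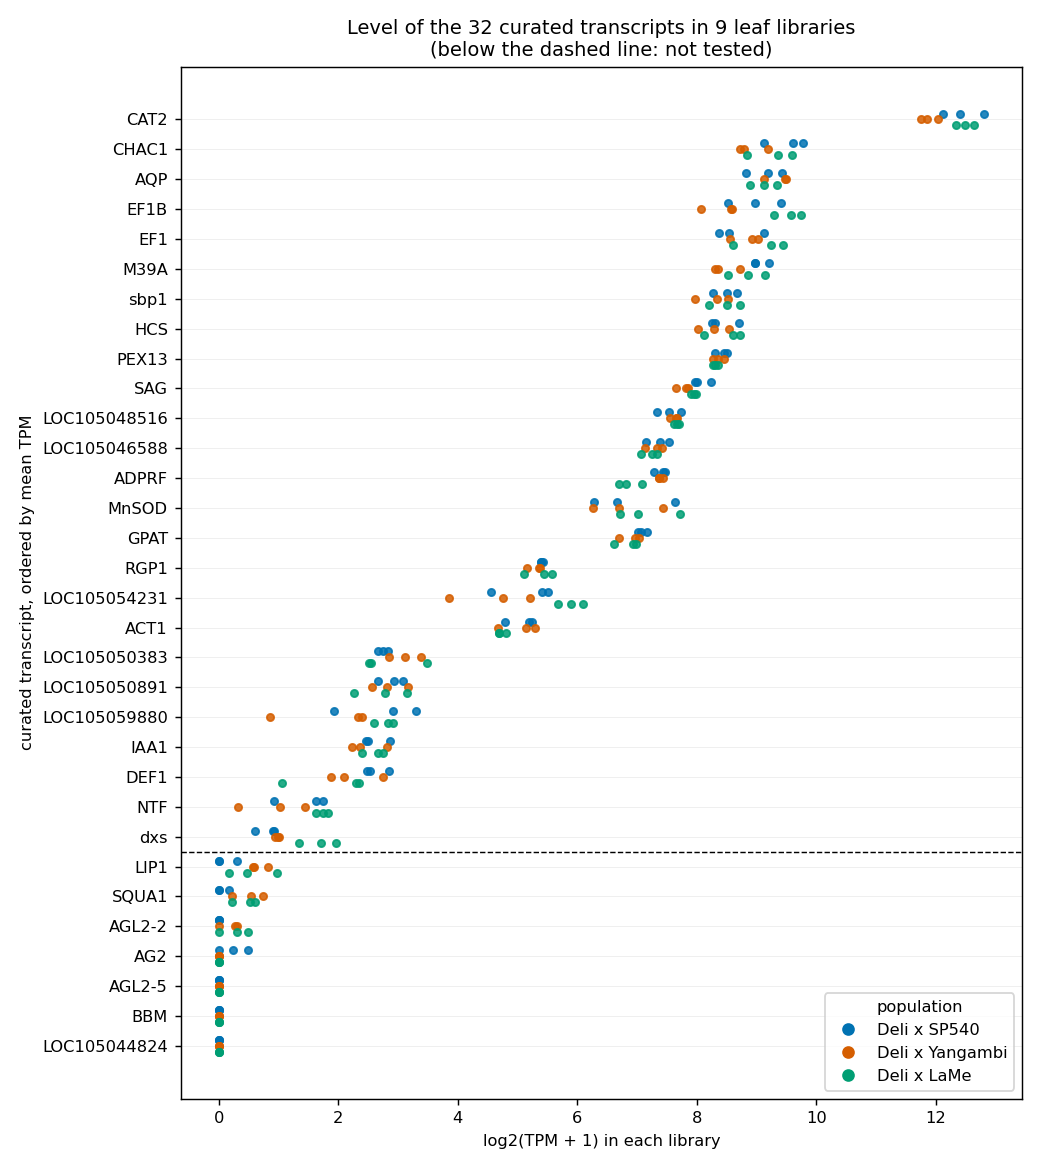
Level of each of the 32 curated transcripts as log2(TPM + 1) on the x axis, 1 point per library, coloured by population and ordered by mean TPM. CAT2 stands apart at the top, and the 7 transcripts under the dashed line did not reach 1 TPM in at least 3 libraries and were not tested.

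Of the redox enzymes, CAT2 encodes a catalase, which breaks down hydrogen peroxide in peroxisomes, the organelles that process the hydrogen peroxide formed in leaf photorespiration. CAT2 had 7189, 5415 and 4469 TPM in SP540, 3458, 4204 and 3693 TPM in Yangambi, and 5738, 5206 and 6399 TPM in LaMe. With a mean of 5086 ± 1247 TPM (SD, n = 9) it ranked 9 among all 51490 transcripts, and it alone made up 45.0% to 58.5% of the TPM of the curated set in each library. Its lowest library, at 3458 TPM, lay above the highest library of the next transcript in the order, CHAC1 (874 TPM). MnSOD, a manganese superoxide dismutase that converts superoxide to hydrogen peroxide in mitochondria, was far lower. It had 100.3, 77.1 and 199 TPM in SP540, 76.1, 172 and 103 TPM in Yangambi, and 104, 128 and 209 TPM in LaMe. Its high yield libraries of SP540 and LaMe and its medium yield library of Yangambi stood above the other 6.

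Among the translation and cytoskeleton genes, EF1 encodes elongation factor 1-alpha, which delivers charged tRNA to the ribosome, and EF1B encodes elongation factor 1-beta, which exchanges the nucleotide bound to it. EF1B had 681, 503 and 366 TPM in SP540, 267, 382 and 385 TPM in Yangambi, and 854, 760 and 628 TPM in LaMe. EF1 had 370, 330 and 557 TPM in SP540, 373, 483 and 522 TPM in Yangambi, and 692, 605 and 390 TPM in LaMe. The level of EF1B was thus above that of EF1 in all 3 LaMe libraries and in the low and medium yield SP540 libraries, and below it in the other 4. The ratio of the EF1B level to the EF1 level spanned 0.656 in the high yield SP540 library to 1.84 in the low yield SP540 library. The actin transcript ACT1, a part of the cytoskeleton, was lower, at 24.5 to 38.1 TPM over the 9 libraries.

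Among the membrane, vesicle, cell wall and peroxisome genes, the aquaporin AQP, a membrane channel of the family that conducts water, had 455 to 717 TPM. PEX13, a peroxin of the machinery that imports proteins into peroxisomes, had the lowest coefficient of variation of the set (6.22% over the 9 libraries). It had 363, 316 and 351 TPM in SP540, 308, 351 and 329 TPM in Yangambi, and 314, 328 and 309 TPM in LaMe. ADPRF, an ADP-ribosylation factor and thus a small GTPase of vesicle budding, had 172, 155 and 175 TPM in SP540, 165, 173 and 165 TPM in Yangambi, and 112, 135 and 103 TPM in LaMe, so that every LaMe library lay below the other 6. RGP1, a reversibly glycosylated polypeptide connected with sugar supply to the cell wall, had 33.4 to 46.6 TPM.

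Of the lipid and isoprenoid genes, GPAT, named as a glycerol-3-phosphate acyltransferase, an enzyme of glycerolipid assembly, had 97.04 to 143 TPM. dxs encodes the first enzyme of the plastid isoprenoid pathway, which supplies precursors of carotenoids and of the chlorophyll side chain. Its curated transcript had 0.520, 0.899 and 0.881 TPM in SP540, 0.991, 1.02 and 0.928 TPM in Yangambi, and 2.25, 1.54 and 2.87 TPM in LaMe. The 3 LaMe libraries were the highest, at levels close to the filter of 1 TPM, and apart from them only the medium yield Yangambi library reached it. LIP1 stayed under 1 TPM in every library, with 0.971 TPM at most.

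Of the transcription regulators, IAA1, a member of the Aux/IAA family that represses auxin responses, had 3.70 to 6.30 TPM. DEF1 belongs to the DEFICIENS class of MADS-box factors, known for specifying petals and stamens. It had 4.57, 4.80 and 6.23 TPM in SP540, 2.68, 5.69 and 3.29 TPM in Yangambi, and 4.08, 1.08 and 3.90 TPM in LaMe. The other MADS-box transcripts were at or near 0. SQUA1, of the SQUAMOSA group, reached 0.674 TPM at most, and AGL2-2, of the SEPALLATA group, 0.407 TPM. AG2, of the AGAMOUS group, was above 0 only in the low and medium yield SP540 libraries, at 0.405 and 0.173 TPM. AGL2-5 and BBM were listed at 0 in all 9 libraries, as was the unnamed LOC105044824; BBM is named for BABY BOOM, an AP2-type regulator of embryogenesis.

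The named transcripts to which no role is given here were mostly abundant. CHAC1 had 874, 778 and 556 TPM in SP540, 440.0, 423 and 585 TPM in Yangambi, and 770.0, 660.0 and 455 TPM in LaMe. M39A had 504, 589 and 502 TPM in SP540, 314, 328 and 421 TPM in Yangambi, and 465, 368 and 563 TPM in LaMe. The Yangambi libraries of M39A lay below all of SP540 and overlapped with LaMe. sbp1 had 250 to 424 TPM, HCS 259 to 420 TPM and SAG 200.4 to 300.3 TPM. NTF was low, with 2.09, 2.33 and 0.891 TPM in SP540, 1.03, 1.73 and 0.254 TPM in Yangambi, and 2.56, 2.33 and 2.07 TPM in LaMe. Of the unnamed loci, LOC105048516 had 161 to 213 TPM and LOC105046588 133 to 185 TPM. LOC105054231 had 44.8, 41.5 and 22.7 TPM in SP540, 13.4, 35.9 and 26.0 TPM in Yangambi, and 49.9, 58.6 and 67.6 TPM in LaMe, the 3 LaMe libraries being the highest. The remaining 3, LOC105050383, LOC105050891 and LOC105059880, had 4.69 to 10.2, 3.78 to 7.96 and 0.803 to 8.90 TPM.

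Most neighbours in the order of mean levels could not be told apart by their ranges. Of the 24 adjacent pairs among the 25 tested transcripts, 20 overlapped over the 9 libraries. The 4 that did not were CAT2 above CHAC1, PEX13 above SAG, GPAT above RGP1 and ACT1 above LOC105050383.

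The labelled tissue was set against fixed marker names as far as the gene table pairs them. CAT2 was the only leaf marker of that list found by name. The reproductive list comprised 8 transcripts, of which 2 were listed at 0 in every library, and its summed TPM ranged from 4.97 to 6.23 in SP540, from 3.35 to 6.09 in Yangambi and from 2.66 to 4.84 in LaMe. Without DEF1, the sum of the other 7 was between 0 and 1.58 TPM per library. Outside the curated set, 5 genes carried a name of the fixed role lists. Of these only RPL27, a ribosomal protein gene with 2 predicted transcripts, passed the filter, at 127 ± 16.9 and 2.72 ± 2.05 TPM (SD, n = 9). Neither transcript passed the test in any of the 6 pairwise comparisons (lowest limma adjusted p = 0.496). CHI2, GLO1, GLO2 and AGL2-3 stayed under 1 TPM in every library.

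Some genes of the curated set have further, predicted transcripts in the table, between which kallisto, the quantification tool, divides shared reads by estimation. The levels of such transcripts are therefore uncertain on their own. According to the gene list, 25 of the 32 curated transcripts are the only one of their gene, 7 have others, and for 5 of these 7 the others were above 0. For EF1 the curated transcript held 73.4% to 94.0% of the gene's TPM. For LOC105054231 it held 48.2% in the low yield Yangambi library and up to 98.3% in the high yield LaMe library. It was the smaller part for LOC105050891, at 24.0% to 47.8%, and ranged from 8.82% to 51.0% for LOC105059880. The only other transcript of either gene is a predicted non-coding one.

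dxs showed the widest swing. Its curated transcript held 7.07% to 32.3% of the gene's TPM in 8 libraries and 97.6% in the low yield LaMe library, where the predicted transcript was at 0.0547 TPM against 1.95 to 12.1 TPM elsewhere. The dxs gene sum was 8.91 ± 3.51 TPM in SP540, 6.19 ± 3.51 TPM in Yangambi and 8.27 ± 6.35 TPM in LaMe (SD, n = 3 each), so that the LaMe excess of the curated transcript was not seen in the sum. For LOC105054231 the gene sum was 51.1 ± 10.9 TPM in SP540, 36.5 ± 8.44 TPM in Yangambi and 62.3 ± 6.55 TPM in LaMe, in the same order of populations as the curated transcript alone.

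**Figure D2:**
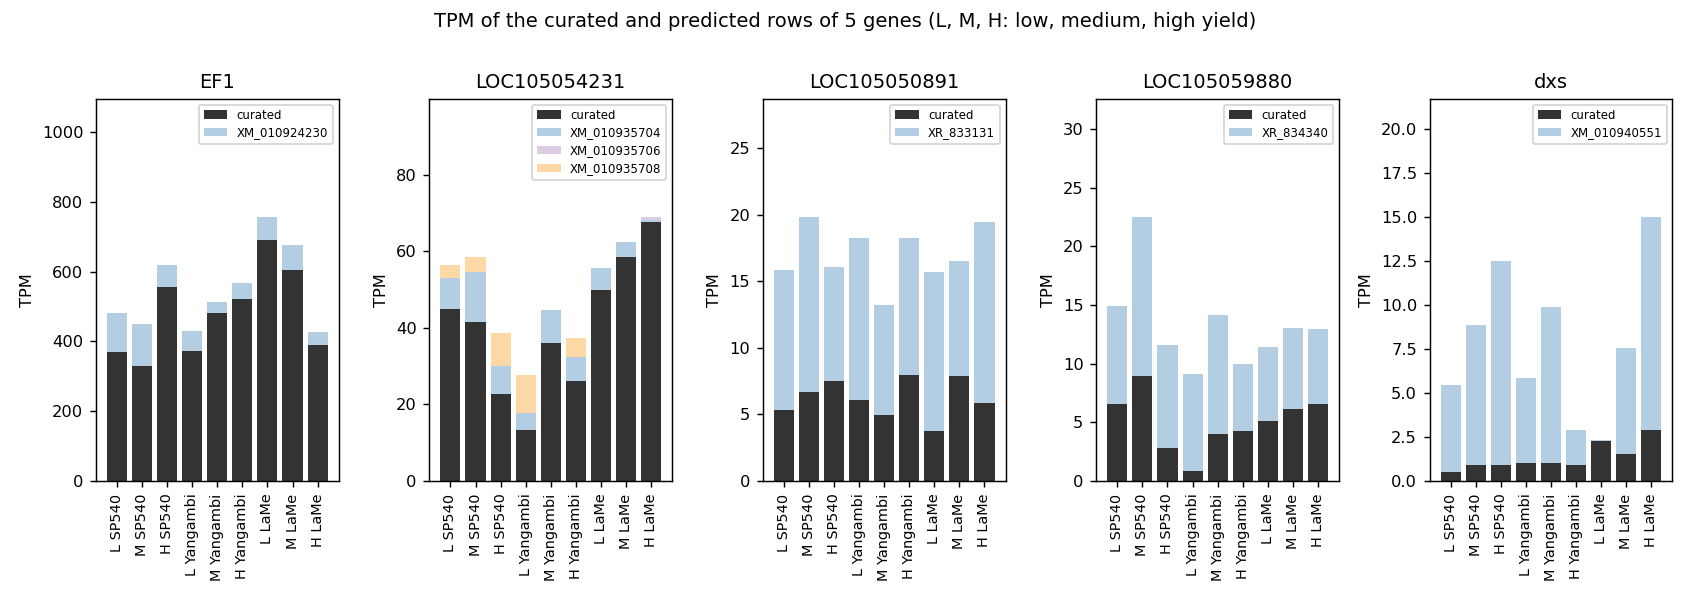
Stacked TPM of the curated transcript (dark) and the predicted transcripts of the same gene (light) for the 5 genes whose other transcripts were above 0, 1 bar per library. The dxs panel shows the low yield LaMe library with almost no predicted transcript (0.0547 TPM), and the LOC105050891 and LOC105059880 panels show curated parts of at most 47.8% and 51.0%. In the LOC105050891 and LOC105059880 panels the other part is a predicted non-coding transcript.

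The curated transcripts varied less between libraries than the table as a whole. The median coefficient of variation over the 9 libraries was 22.1% for the 25 tested curated transcripts and 37.5% for all 30576 tested transcripts, and 18 of the 25 lay under the median of all tested transcripts. Among transcripts with a mean of at least 10 TPM the medians were 18.0% for 18 curated and 19.1% for 11858 transcripts in all, so at such levels the medians lay close together. The least variable were PEX13, LOC105048516 (8.03%), RGP1 (9.99%), LOC105046588 (10.7%) and SAG (11.1%). The most variable were dxs (57.9%), LOC105059880 (47.5%), NTF (46.7%), LOC105054231 (43.8%) and MnSOD (39.3%). Of these 5, only MnSOD had a mean above 100 TPM. ACT1, EF1 and EF1B, whose families often serve as references in expression assays, were not among the 5 least variable.

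More of the variance of log2(TPM + 1) went with population than with yield class for most curated transcripts, as in the table as a whole. The median share was 33.8% for population and 13.9% for yield class over the 25, against 29.5% and 16.9% over all tested transcripts. The population share was the larger of both for 15 of the 25 (60.0%) and for 62.5% of all tested transcripts. At a mean of at least 10 TPM it was the larger for 61.1% of the curated and 66.9% of all transcripts. The population share was largest for ADPRF (84.8%), dxs (82.6%), EF1B (73.5%) and CAT2 (68.2%). The curated dxs transcript passed the filter only through its LaMe libraries, so its share cannot be read as a population difference. Its LaMe excess was not seen in the sum of its gene. The yield share was largest for LOC105050891 (40.7%), MnSOD (40.5%), IAA1 (39.5%) and NTF (38.5%). The gene sum of LOC105050891, which includes a predicted non-coding transcript, differed little between yield classes. It was 16.6 ± 1.42, 16.5 ± 3.29 and 17.9 ± 1.70 TPM in low, medium and high yield (SD, n = 3 each). The rest was larger than the yield share for LOC105050891 (53.2%), MnSOD (51.0%) and IAA1 (51.4%), but not for NTF (13.6%). For NTF the population share, at 47.9%, was larger than the yield share.

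Differences were tested with limma on log2(TPM + 1) in a model with population and yield class over all 9 libraries, with Benjamini-Hochberg adjustment over all 30576 transcripts that had at least 1 TPM in at least 3 libraries. A transcript was called at an adjusted p under 0.05. No curated transcript was called in any of the 8 comparisons, of which 6 set a pair of groups against each other and 2 asked for any difference among the 3 populations or the 3 yield classes. Differences are therefore given below as values with their intervals, which are unadjusted 95% intervals.

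**Figure D3:**
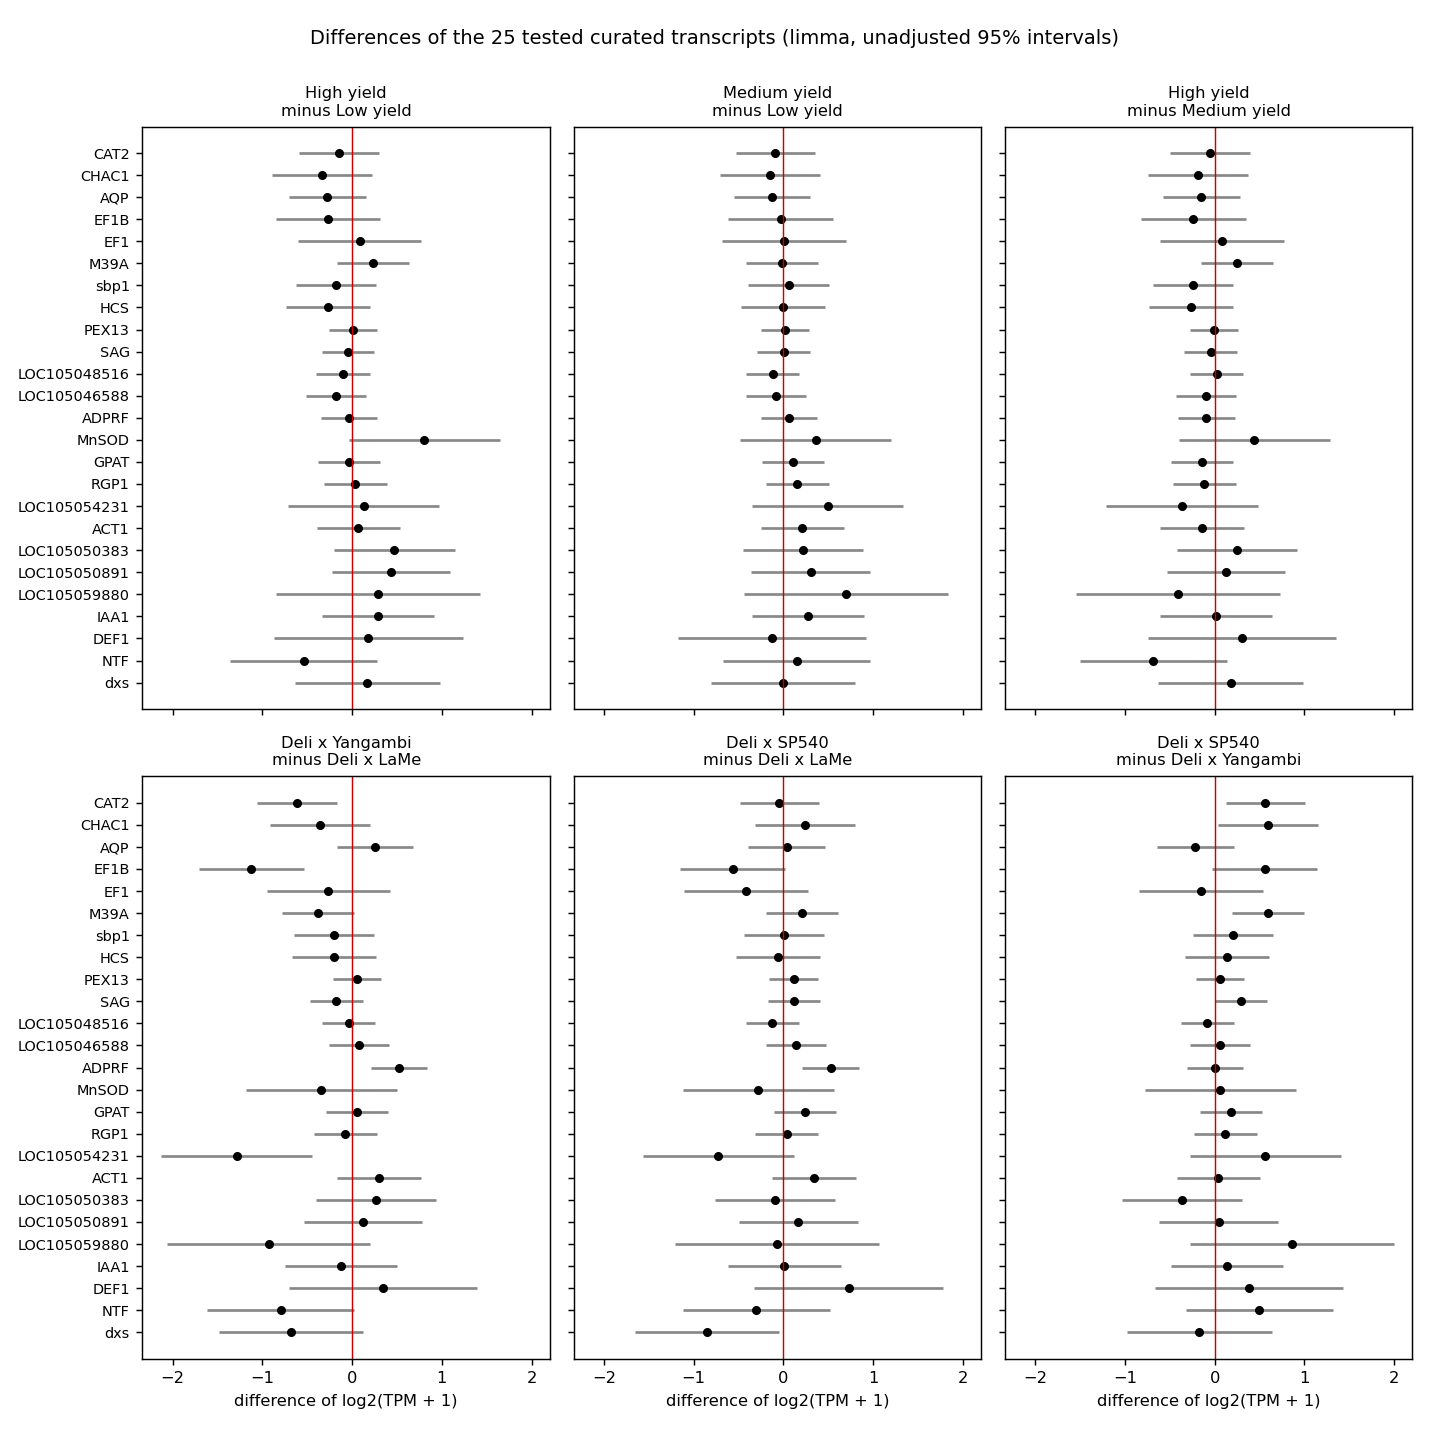
Differences of log2(TPM + 1) of the 25 tested curated transcripts in the 6 pairwise comparisons, with unadjusted 95% limma intervals; the line marks 0. In the yield panels every interval reaches 0, whereas in the population panels EF1B, ADPRF, LOC105054231, CAT2, dxs, M39A, CHAC1 and SAG have an interval that excludes 0 in at least 1 panel, none of them with an adjusted p under 0.05.

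Yangambi against LaMe gave the lowest adjusted p-values of the set. The 4 leading transcripts were EF1B, LOC105054231 and CAT2, all lower in mean in Yangambi, and ADPRF, higher. None of the 25 was called, with a background of 0.383% of all tested transcripts, while at an unadjusted p under 0.05 there were 4 curated transcripts (16.0%) against a background of 13.8%. EF1B averaged 345 ± 67.2 TPM in Yangambi and 747 ± 114 TPM in LaMe (SD, n = 3 each), with no overlap. Its difference was -1.12 on the log2 scale (SE 0.247, interval -1.71 to -0.54, limma adjusted p = 0.135) and was lower in 3 of 3 yield classes. Without the low yield Yangambi library the EF1B difference was -0.79, and without the high yield Yangambi library it was -1.38. ADPRF averaged 167 ± 4.86 TPM in Yangambi and 117 ± 16.4 TPM in LaMe, a difference of 0.52 (SE 0.133, limma adjusted p = 0.176) with 3 of 3 yield classes higher.

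LOC105054231 averaged 25.1 ± 11.3 TPM in Yangambi and 58.7 ± 8.84 TPM in LaMe (SD, n = 3 each), a difference of -1.29 (SE 0.356, limma adjusted p = 0.206). With the TPM summed over the transcripts of this gene the difference was -0.78 (limma adjusted p = 0.155). For the curated transcript alone it was -0.88 without the low yield Yangambi library and -1.53 without the medium yield Yangambi library. CAT2 averaged 3785 ± 381 TPM in Yangambi and 5781 ± 598 TPM in LaMe, a difference of -0.61 (SE 0.188, limma adjusted p = 0.241). The libraries of Yangambi and LaMe did not overlap for 8 of the 25 (32%), against a background of 21%. These were EF1B, LOC105054231, CAT2, LOC105059880, NTF, SAG and dxs, lower in Yangambi, and ADPRF, higher. Of these, dxs passed the filter only through its LaMe libraries. Over all 25 the difference was positive for 9 and negative for 16, with a median of -0.18 against 0.02 over all tested transcripts.

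SP540 against LaMe, which uses the same LaMe libraries, had ADPRF first. ADPRF averaged 168 ± 10.9 TPM in SP540 and 117 ± 16.4 TPM in LaMe (SD, n = 3 each), a difference of 0.53 (SE 0.133, limma adjusted p = 0.257). With every library centred on its median, which moved the median of all tested transcripts in this comparison to -0.03, against 0.08 before, the ADPRF difference was 0.41. The curated dxs transcript averaged 0.767 ± 0.214 TPM in SP540 and 2.22 ± 0.667 TPM in LaMe. Its difference of -0.85 (SE 0.342, limma adjusted p = 0.465) turned to 0.31 (limma adjusted p = 0.894) when the TPM of the transcripts of the gene was summed. EF1B averaged 517 ± 158 TPM in SP540 and 747 ± 114 TPM in LaMe, with a difference of -0.57 (SE 0.247, limma adjusted p = 0.513) and overlapping libraries. That difference was -0.35 without the high yield SP540 library and -0.82 without the low yield SP540 library. None of the 25 was called, with a background of 0.242%, and 2 (8.0%) had an unadjusted p under 0.05, against a background of 10.1%. The libraries did not overlap for 5 of the 25 (20%, background 16.9%), namely ADPRF, DEF1 and GPAT, higher in SP540, and dxs and LOC105054231, lower. For dxs this and the unadjusted p also rest on the filter, which it passed only through its LaMe libraries. The median difference was 0.01 over the 25.

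SP540 against Yangambi had 20 of the 25 differences above 0 and 5 below, with a median of 0.14 against 0.07 over all tested transcripts. M39A averaged 532 ± 50.1 TPM in SP540 and 354 ± 58.1 TPM in Yangambi (SD, n = 3 each), a difference of 0.59 (SE 0.170, limma adjusted p = 0.387). CAT2 averaged 5691 ± 1381 TPM in SP540 and 3785 ± 381 TPM in Yangambi, a difference of 0.57 (SE 0.188, limma adjusted p = 0.447), which was 0.35 without the low yield SP540 library. CHAC1 averaged 736 ± 163 TPM in SP540 and 483 ± 88.9 TPM in Yangambi, a difference of 0.60 (SE 0.236, limma adjusted p = 0.502), with overlapping libraries. That of CHAC1 was 0.39 without the low yield Yangambi library and 0.95 without the high yield Yangambi library. The M39A and CAT2 libraries of SP540 all lay above those of Yangambi. None of the 25 was called, where the background was 1 transcript of 30576 (0.00327%), and 4 (16.0%), with SAG as the fourth, had an unadjusted p under 0.05 against a background of 9.54%. The libraries did not overlap for 6 of the 25 (24.0%, background 14.9%): M39A, CAT2, SAG and RGP1, higher in SP540, and dxs and LOC105050383, lower. The curated dxs transcript is among the 6 although it passed the filter only through its LaMe libraries, which are not compared here. The dxs gene sum was 8.91 ± 3.51 TPM in SP540 and 6.19 ± 3.51 TPM in Yangambi, so the lower level was not seen in the sum.

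The test for any difference among the 3 populations had its lowest adjusted p-values at ADPRF (0.229), EF1B (0.230), LOC105054231 (0.316), CAT2 (0.317) and M39A (0.327), all by limma. These 5 (20%) also had an unadjusted p under 0.05, against a background of 12.7%, and none of the 25 was called, with a background of 0.327%.

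**Figure D4:**
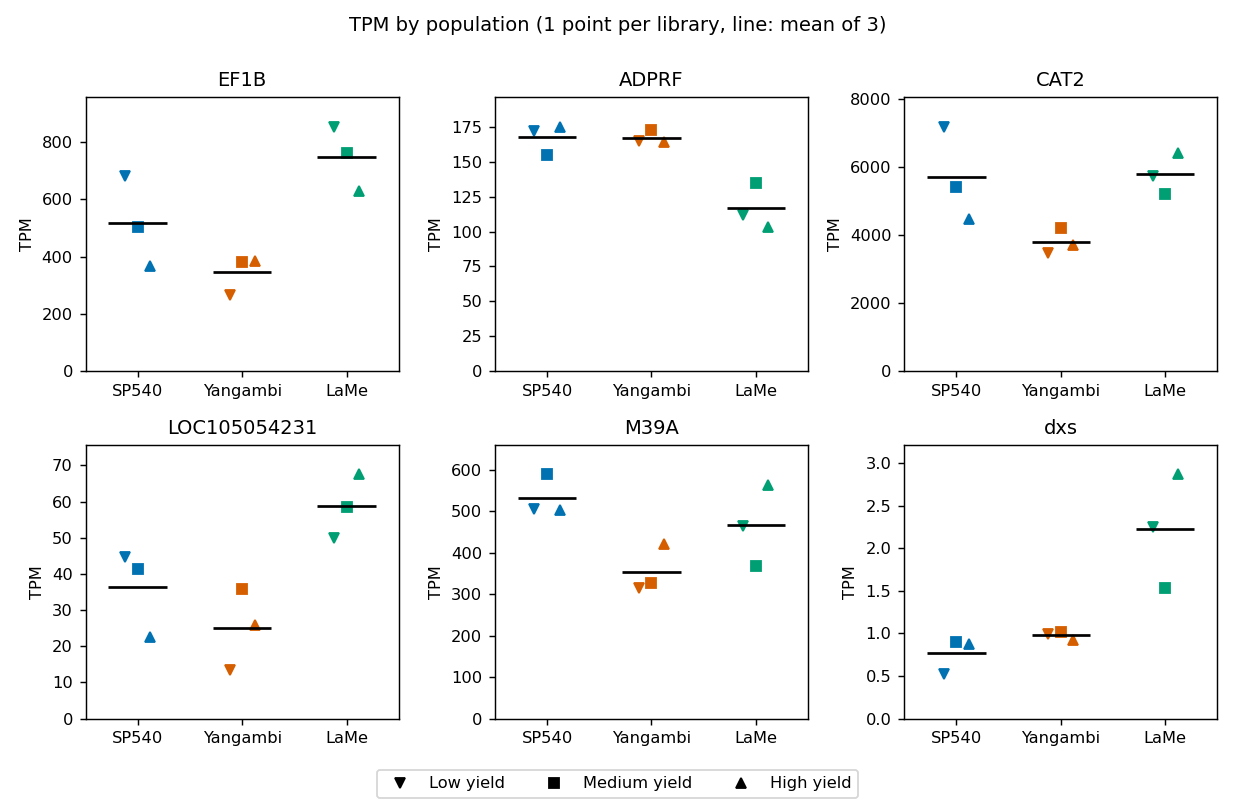
TPM of EF1B, ADPRF, CAT2, LOC105054231, M39A and dxs by population, 1 point per library with the yield class as symbol and the mean of 3 libraries as a line. The LaMe libraries of ADPRF (103 to 135 TPM) lie under all others, and the Yangambi libraries of CAT2 (3458 to 4204 TPM) lie under all others.

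High yield against low yield left the curated transcripts without a difference beyond the spread. None of the 25 was called, with a background of 0%, none had an unadjusted p under 0.05, against a background of 4.66%, and none had groups that did not overlap, against a background of 8.02%. MnSOD had the lowest p. It averaged 170 ± 58.6 TPM in the high class and 93.4 ± 15.1 TPM in the low class (SD, n = 3 each), and the high yield library was above the low yield library in 3 of 3 populations. The difference was 0.81 on the log2 scale (SE 0.356, interval -0.04 to 1.65, limma adjusted p = 0.987), and the high yield Yangambi library, at 103 TPM, lay under the low yield LaMe library, at 104 TPM. Without the high yield SP540 library the MnSOD difference was 0.53, and without the high yield Yangambi library it was 1.19.

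LOC105050383 averaged 8.0 ± 2.05 TPM in the high class and 5.41 ± 0.744 TPM in the low class (SD, n = 3 each), a difference of 0.47 (SE 0.283, limma adjusted p = 0.987). Without the high yield LaMe library, at 10.2 TPM, that difference was 0.18, and without the high yield Yangambi library it was 0.65. NTF averaged 1.07 ± 0.922 TPM in the high class and 1.89 ± 0.784 TPM in the low class, a difference of -0.54 (SE 0.347, limma adjusted p = 0.987). At so low a level the NTF difference depended on the pseudocount: it was -1.04 with pseudocount 0.1 and -0.19 with pseudocount 5. For a stable transcript the interval was narrow: PEX13 had a difference of 0.01 with an interval of -0.26 to 0.28. The median distance from an estimate to the end of its interval was 0.47 over the 25 curated transcripts and 0.81 over all tested transcripts. The sets were not matched for level: the median of the mean levels was 151 TPM over the 25 and 6.14 TPM over all. The differences were above 0 for 13 and below 0 for 12 of the 25, with a median of 0.01 against 0.03 over all tested transcripts.

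Medium yield against low yield had LOC105059880 first, with 6.34 ± 2.46 TPM in the medium class and 4.14 ± 2.99 TPM in the low class (SD, n = 3 each), a difference of 0.70 (SE 0.480). It was 0.19 without the low yield Yangambi library, at 0.803 TPM, 1.09 without the low yield SP540 library and 0.44 with the TPM of its gene summed. LOC105054231 followed with a difference of 0.49 (SE 0.356), which was 0.081 without the low yield Yangambi library, 0.91 without the low yield SP540 library, 0.25 without the medium yield Yangambi library and 0.29 as a gene sum. LOC105050891 had a difference of 0.30 (SE 0.280), which was 0.031 with the medium yield library of LaMe left out and 0.13 with the low yield library of LaMe left out. It was 0.47 without the low yield Yangambi library and 0.56 without the medium yield Yangambi library. Each of these 3 thus moved with single libraries, and the lowest limma adjusted p of the 25 was 0.9996. The difference of LOC105050891 was -0.021 (limma adjusted p = 0.9995) with the TPM of its gene summed. For LOC105050891 and LOC105059880 the gene sum adds a predicted non-coding transcript to the curated mRNA. None of the 25 was called (background 0%), none had an unadjusted p under 0.05 (background 3.47%) and none had groups that did not overlap (background 6.46%).

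High yield against medium yield had NTF first, with 1.07 ± 0.922 TPM in the high class and 2.13 ± 0.349 TPM in the medium class (SD, n = 3 each), a difference of -0.69 (SE 0.347). Over all settings the NTF difference ranged from -1.28 to -0.24. M39A followed with a difference of 0.25 (SE 0.170). It was 0.075 without the medium yield LaMe library, 0.14 without the high yield LaMe library, 0.43 without the medium yield SP540 library and 0.42 without the high yield SP540 library. HCS had a difference of -0.26 (SE 0.199). It was -0.12 without the high yield LaMe library, -0.14 without the medium yield Yangambi library, -0.40 without the high yield Yangambi library and -0.42 without the medium yield SP540 library. The limma adjusted p was 1 for all 25. None was called (background 0%) and none had an unadjusted p under 0.05 (background 4.4%). Groups did not overlap for 2 of the 25 (8.0%, background 7.98%), sbp1 and HCS. sbp1 had 309, 322 and 295 TPM in the high yield libraries of SP540, Yangambi and LaMe, against 364, 368 and 362 TPM in their medium yield libraries. HCS had 303, 311 and 277 TPM in the high yield libraries, against 314, 370 and 388 TPM in the medium yield libraries.

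Asked for any difference between yield classes, the test called none of the 25 (background 0%), and none had an unadjusted p under 0.05 (background 4.21%). The limma adjusted p was 0.99992 for all 25.

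**Figure D5:**
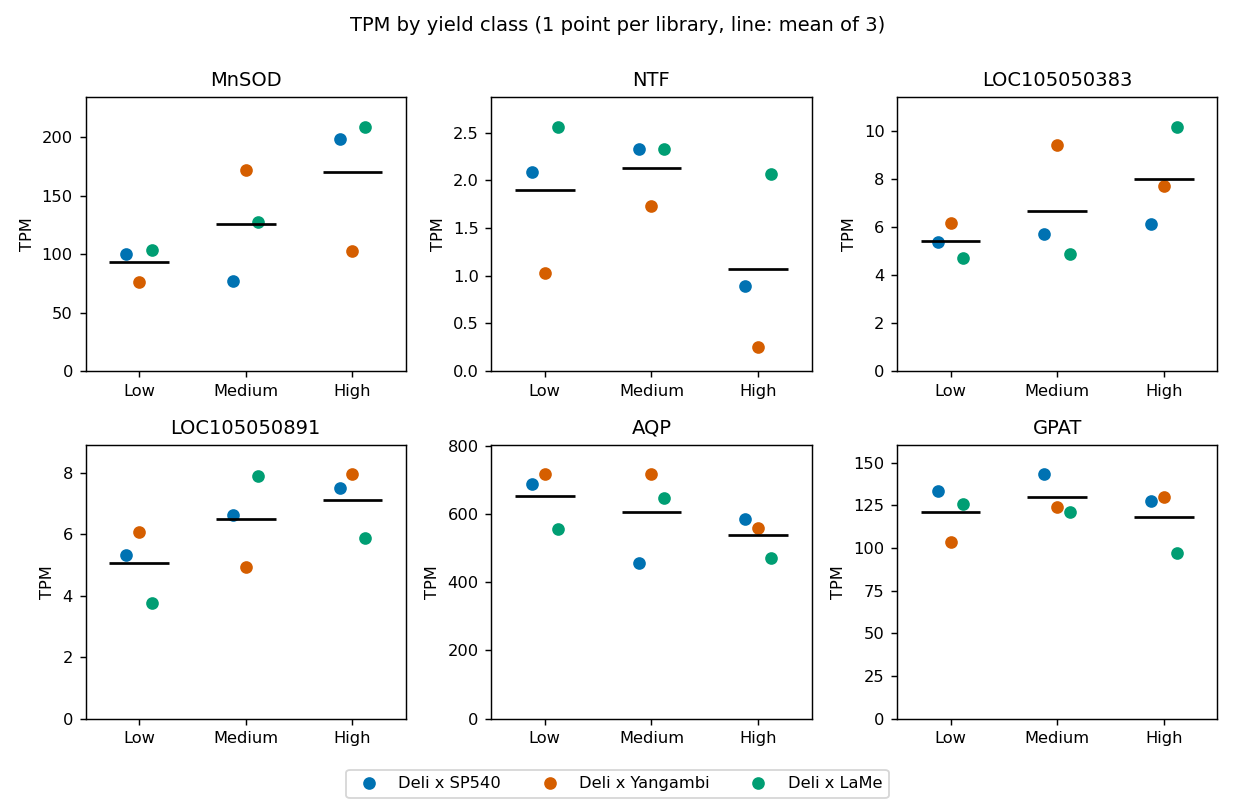
TPM of MnSOD, NTF, LOC105050383, LOC105050891, AQP and GPAT by yield class, 1 point per library with the population as colour and the mean of 3 libraries as a line. The MnSOD means are 93.4, 126 and 170 TPM in low, medium and high yield, and the libraries of the 3 classes overlap.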

How the data were processed

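Leaf RNA of 9 libraries was measured. The authors' deposited table is named as counts but holds TPM: the values have decimals and add up to 1000000 in each library. Tools named, per the submitters' processing notes, are fastp, kallisto and DESeq2, without versions. The transcript set is not given in the sources used here, nor is a genome build. Depth is unknown, so no counting interval is given.

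Accessions without their version were looked up in the RefSeq gene table of assembly EG11, which paired 31716 of them (61.6%), all 32 curated ones included. The table served for names and for which transcripts share a gene.

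A count test would need counts, so limma 3.58.1 (R 4.3.3, trended and robust prior variance) was fitted to log2(TPM + 1) with population and yield class as terms, 4 residual degrees of freedom, on the 30576 transcripts that reached 1 TPM in 3 or more libraries. A log2 difference with pseudocount 1 understates the change of low transcripts. With 1 library per combination, no interaction could be fitted. Alternatives changed the pseudocount, filter, centring, covariate, libraries fitted, prior variance and gene sums, and left out libraries, populations and yield classes.

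The accession alone decides which transcripts belong, but that this set is described, and its role and marker lists, were chosen with earlier results of these data known. By rule, every curated transcript is accounted for, those of at least 1 TPM in mean with values, and test values for the 3 lowest p of each pairwise comparison, the 5 most and 5 least variable and the largest variance shares. The highest levels of LIP1, SQUA1, AGL2-2 and AG2, under 1 TPM in mean, are given beside these. CAT2 in Yangambi against LaMe, SAG and PEX13 are given test values beyond that rule and were chosen after their values were seen, as were transcripts named for groups that do not overlap.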

Additional observations from a re-analysis of the deposited data

How the results depend on the processing

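No curated transcript was called in any comparison under any of the 21 alternatives per pairwise comparison or 20 per joint test; the lowest adjusted p was 0.0685 (EF1B, Yangambi against LaMe, without yield class in the model). Of 375 recomputed named differences, 2 reversed, both with TPM summed per gene: dxs in SP540 against LaMe (0.31) and LOC105050891 in medium against low yield (-0.021). The sum of LOC105050891 includes a predicted non-coding transcript. The median of all transcripts in SP540 against LaMe was 0.08, and -0.03 with libraries centred on their median; the other shifts were smaller. The calls over all transcripts depended on the settings. For Yangambi against LaMe (117 called) they were 70 with pseudocount 0.1, 46 without a filter, 389 without the covariate, 33 with only the compared libraries, 176 with gene sums, and 16, 1 and 7 without low, medium and high yield. For SP540 against LaMe (74) the same settings gave 48, 44, 201, 26, 129, 0, 0 and 3. For SP540 against Yangambi (1) they were 5 with pseudocount 0.1, 3 with pseudocount 5, 0 without a filter, 0 with a mean of at least 5 TPM, 47 without the covariate, 0 with only the compared libraries, 7 without trend and robust fitting, 14 with gene sums, and 10, 0 and 2 without low, medium and high yield. For any population difference (100) they were 55 with pseudocount 0.1, 46 without a filter, 315 without the covariate, 153 with gene sums, and 16, 0 and 7 without each yield class. Leaving out 1 library at a time gave 20 to 77, 24 to 52, 0 to 11 and 17 to 61 in these 4 comparisons. It gave 0 to 1 for high against low yield, 0 to 1 for medium against low yield and 0 to 1 for any yield difference, the 1 without the low yield Yangambi library. Leaving out a library or class also lowers the number of libraries fitted; otherwise the cause was not tested.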

Other observations

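Pairs of the 25 tested curated transcripts were compared over the 9 libraries as a description of which levels moved together. All 300 pairs were computed with Pearson's r and Spearman's rho on log2(TPM + 1), each with an exact two-sided permutation test over 362880 orders and Benjamini-Hochberg adjustment over the 300. Libraries were permuted freely across populations and yield classes, so these p-values also take in population or yield differences shared by both transcripts. No pair had an adjusted p under 0.05 by either measure, and 33 of the 300 had an unadjusted exact p under 0.05 for r. No such share was computed for pairs of other transcripts, so the 33 cannot be read as a trait of the curated set. The lowest p was that of sbp1 and HCS, with r = 0.935 (exact permutation p = 0.000187, adjusted 0.0562) and rho = 0.95 (adjusted 0.106). Their r was 0.887 without the 2 libraries farthest from the median of the first transcript. With population means removed from both, the r of sbp1 and HCS was 0.937. The ratio of the HCS level to the sbp1 level stayed between 0.864 and 1.07 over the 9 libraries, which share the total of 1000000 TPM per library. For ADPRF and dxs no r over the 9 libraries as they stand is given. The 3 LaMe libraries stood apart from the other 6 in both, lowest for ADPRF and highest for dxs. With population means removed from both, the r of ADPRF and dxs was -0.830, and a single population has too few libraries for an r of its own. The level of the curated dxs transcript is also uncertain, since shared reads are divided between it and a predicted transcript. MnSOD and IAA1 had r = 0.906 (exact permutation adjusted p = 0.0918) and rho = 0.817 (adjusted 0.425), with an r of 0.872 without the 2 farthest libraries and 0.937 with population means removed. EF1B and LOC105054231 had r = 0.892 (exact permutation adjusted p = 0.0918) and rho = 0.867 (adjusted 0.425). Their r was 0.868 without the 2 farthest libraries and 0.695 with population means removed.

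Among the curated transcripts, 2 pairs are neighbours in the reference gene table: AGL2-5 is listed next to SQUA1, and LOC105050891 next to CHAC1. Of the first pair, AGL2-5 was listed at 0 in all 9 libraries and SQUA1 stayed under 1 TPM. Of the second pair, LOC105050891 had 3.78 to 7.96 TPM and CHAC1 423 to 874 TPM.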
